A study of Mus musculus with 6 samples.

Results

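Interferon-stimulated genes, the transcripts that cells make when interferon is sensed, were examined in Tsc1-KO kidneys at 45 days of age. The group holds 35 of the 15302 genes listed for these kidneys: 22 effectors, whose products act on viruses or on the infected cell, 3 sensors of viral RNA, and 10 regulators of the response. The genes were picked by name after values of the same comparison had been seen, so their levels and differences are given as a description, and the counts of members that pass a threshold support nothing. WT mice (replicates 1, 2 and 3) carry the genotype C57BL/6, and Tsc1-KO mice (replicates 4, 5 and 6) carry Tsc1f/f/Aqp2 Cre, in which the Aqp2 promoter drives Cre and so directs the loss of Tsc1 to the principal cells of the collecting duct. All 6 mice were 45 days old, none had a treatment in the labels, and poly A RNA of the total kidney was sequenced. Labels do not say whether the animals were littermates, and effects of the Cre or of the floxed strain cannot be told apart from the loss of Tsc1.

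Interferons bind receptors at the cell surface, the receptors activate the Janus kinases JAK1 and TYK2, and these phosphorylate STAT factors. For type I interferon, STAT2 and IRF9 act within the complex ISGF3, which binds the interferon-stimulated response element (ISRE) in the promoters of its target genes. Type II interferon acts mostly through the gamma-activated site (GAS), and viral RNA in the cytosol, read by RIG-I and related sensors, leads to interferon production and also induces part of the same genes directly.

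Promoter letters were read for the 28 members found in the RefSeq promoter table (GRCm38.p6), over the 250 bases before each start and on both strands. Ifi27, Oas2, Rtp4, Dhx58, Usp18, Parp9 and Parp14 were not matched. The ISRE core, searched as GAAA, any 2 bases and GAAA again, was present in 11 of 28 members (39.3%), against 322 of 10529 tested genes with a promoter (3.06%). These 11 were the effectors Bst2, Oas1a, Oas3, Isg15, Ifit1, Ifit3, Gbp2, Gbp3, Gbp7 and Ifitm2 and the regulator Stat2. A longer form, the core followed directly by CT, was found in 7 of 28 members (25%) and in 0.285% of the 10529 genes. The GAS letters, TTCNNNGAA, were found in 7 members (25%) and in 7.26% of genes, and in 1 member, Bst2, the GAS match overlapped an ISRE core. A match is a run of letters and was not tested as a binding site.

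Stretches of 90 bases are shown for 7 members, 5′ to 3′ on the strand of the gene, with every ISRE core match in capitals; a match on the other strand appears as capitals that begin with TTTC. Bst2, Oas1a and Isg15 were chosen as the members with a match whose increase passed the test across all genes, Oas3 as the effector that was lower, Ifit1 and Ifit3 as family members with separate matches, and Stat2 as the regulator with a match.
Bst2: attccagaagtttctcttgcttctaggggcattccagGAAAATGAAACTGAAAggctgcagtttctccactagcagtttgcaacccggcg
Oas1a: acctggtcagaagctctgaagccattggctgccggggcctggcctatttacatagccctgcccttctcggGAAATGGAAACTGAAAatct
Isg15: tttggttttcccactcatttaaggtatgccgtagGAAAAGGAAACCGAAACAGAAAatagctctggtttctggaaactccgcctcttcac
Oas3: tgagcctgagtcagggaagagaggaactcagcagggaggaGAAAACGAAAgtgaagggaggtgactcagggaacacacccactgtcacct
Ifit1: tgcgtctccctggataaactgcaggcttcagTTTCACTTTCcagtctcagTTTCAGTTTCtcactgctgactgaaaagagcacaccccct
Ifit3: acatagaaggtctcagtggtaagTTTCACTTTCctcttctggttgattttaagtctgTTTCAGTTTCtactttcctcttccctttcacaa
Stat2: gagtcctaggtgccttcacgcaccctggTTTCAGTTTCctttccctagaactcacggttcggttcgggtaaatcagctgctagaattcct

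The Bst2 stretch lies at chr8:71537550-71537639 on the minus strand, its capitals at bases -130 to -115 before the start, where overlapping matches run together. That of Oas1a lies at chr5:120907526-120907615 on the minus strand, with the capitals at -20 to -5, the closest to a start among these 7. Isg15 had 3 overlapping matches at -78 to -57, within chr4:156200841-156200930 on the minus strand. The stretch of Oas3 was read from chr5:120777685-120777774 on the minus strand and has 1 match at -75 to -66. In Ifit1 (chr19:34640754-34640843 on the plus strand) and Ifit3 (chr19:34583350-34583439 on the plus strand), which lie in the same gene cluster with 3 coding genes between them, 2 matches each lie apart on the other strand. The Stat2 stretch, from chr10:128270248-128270337 on the plus strand, has 1 match at -222 to -213.

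Library depth was 19568856 to 24647430 reads over the listed genes, and each member had at least 30 reads in every library. Pearson's r of log2 values between libraries over the tested genes was 0.990 to 0.992 among Tsc1-KO libraries and 0.992 between WT replicates 1 and 2. WT replicate 3 stood apart from its group, with r of 0.977 and 0.976 to WT replicates 1 and 2, below its r of 0.981 and 0.980 to Tsc1-KO replicates 4 and 5; between WT replicates 1 and 2 and the Tsc1-KO libraries r was 0.976 to 0.982. It also differed from them at an MHC locus: the class II pseudogene H2-Ea-ps, chosen after its values were seen, was at 20.3 and 27.1 FPKM in WT replicates 1 and 2, at 0.532 FPKM in WT replicate 3 and listed at 0 in all 3 Tsc1-KO libraries. The level of this pseudogene was thus also lower in every Tsc1-KO library than in every WT library. The 3 WT libraries carry the same genotype label, so the label does not separate WT replicate 3 from WT replicates 1 and 2. Between the groups, a difference in strain background at this locus cannot be told apart from genotype. Whether such a difference has a part in the results was not tested. Tsc1 itself was at 8.46, 8.91 and 7.49 FPKM in WT and 7.69, 7.61 and 8.23 FPKM in Tsc1-KO kidneys (log2 fold change -0.07, adjusted p = 0.699 from limma), and since kidney cells without Cre keep the gene, its level is a weak check of the labels. Collecting duct markers were present, with 6 principal cell genes summing to 364 to 469 FPKM in WT and 428 to 458 FPKM in Tsc1-KO libraries.

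Most members were more abundant in Tsc1-KO than in WT kidneys. FPKM is a read count scaled to the length of the transcript and the depth of the library, and differences were fitted with limma on log2(FPKM + 0.1) over the 13230 genes that averaged 0.5 FPKM or more, where all 35 members were kept. Of these, 31 had a log2 fold change above 0 and 4 below, where 59.8% of all tested genes were above 0, with a median of 0.55 against 0.04 over all tested genes. Bst2, Ifi27, Oas1a, Oas2, Rtp4, Isg15 and Ifi35, 7 of 35, passed the adjusted p threshold of 0.05 as higher, 0 passed as lower, and 28 did not pass (1.87% of all tested genes were called higher and 0.234% lower). In 22 members every Tsc1-KO library lay above every WT library, in 2 every one lay below, and in 11 the groups overlapped, where the same holds for 17.3% and 8.07% of tested genes. By role, the median log2 fold change was 0.59 over 22 effectors, 0.35 over 3 sensors and 0.37 over 10 regulators.

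**Figure D1:**
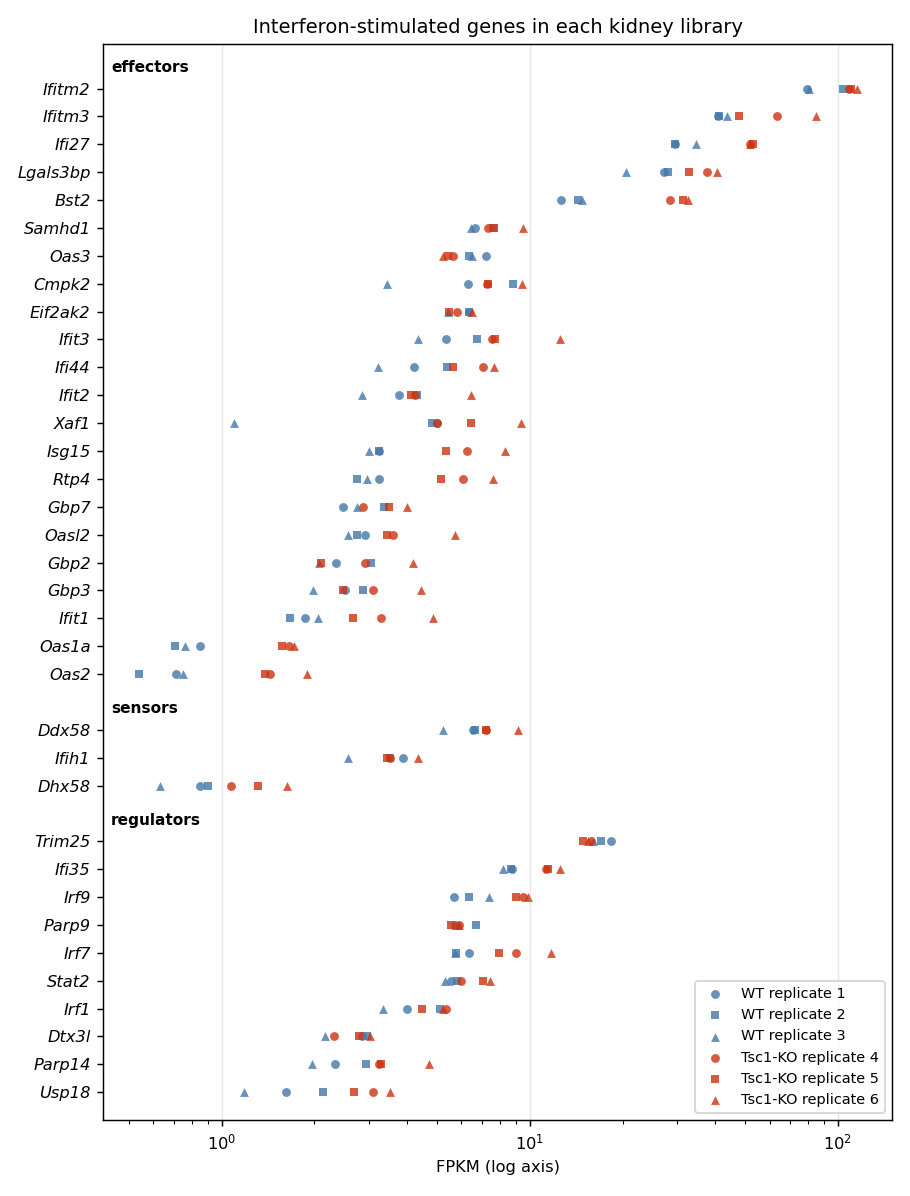
FPKM of the 35 interferon-stimulated genes (rows, in the order of the WT mean within each role) in each of 6 kidney libraries, on a log axis; blue marks WT and red marks Tsc1-KO, with 1 symbol per library. WT means run from 0.667 FPKM (Oas2) to 87.9 FPKM (Ifitm2), and in most rows the red symbols sit to the right, with Oas3 and Trim25 reversed.

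The level of the members was low in these kidneys. WT means ranged from 0.667 to 87.9 FPKM with a median of 4.27 FPKM; 29 of 35 were under 10 FPKM and 3 (Oas2, Oas1a and the sensor Dhx58) were under 1 FPKM. At the upper end, Ifitm2, Ifitm3, Ifi27, Lgals3bp and Bst2 were the only effectors above 10 FPKM in WT kidneys, and Trim25 the only regulator.

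Among the effectors, Bst2 encodes tetherin, which holds budding virus particles at the cell surface. Its level was 12.6, 14.3 and 14.8 FPKM in WT replicates 1, 2 and 3 and 28.5, 31.5 and 32.6 FPKM in Tsc1-KO replicates 4, 5 and 6. These groups lay far apart, with 13.9 ± 1.14 FPKM in WT and 30.8 ± 2.10 FPKM in Tsc1-KO kidneys (mean ± SD, n = 3 each), a log2 fold change of 1.14 (SE 0.085), and unlike most members it was highest among WT libraries in replicate 3. Ifi27, a small interferon-inducible protein, was at 29.7, 29.7 and 34.7 FPKM in WT and 51.9, 52.9 and 52.0 FPKM in Tsc1-KO libraries, a log2 fold change of 0.74 (SE 0.0737). The 3 Tsc1-KO values of Ifi27 differed by 1.02-fold from lowest to highest, the narrowest span of any member in that group.

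The oligoadenylate synthetases detect double-stranded RNA and make the short oligoadenylates that switch on RNase L. Oas1a was at 0.853, 0.708 and 0.760 FPKM in WT and 1.66, 1.57 and 1.72 FPKM in Tsc1-KO libraries (log2 fold change 1.0, SE 0.142). For Oas2 the WT levels were 0.712, 0.540 and 0.748 FPKM and the Tsc1-KO levels 1.44, 1.38 and 1.89 FPKM (log2 fold change 1.12, SE 0.193). Both were low, with Oas1a at 30 to 80 reads per library, and both were separated between the groups. Oas3, the immediate neighbour of Oas2 on chromosome 5, went the other way, with 7.20, 6.37 and 6.48 FPKM in WT and 5.65, 5.44 and 5.24 FPKM in Tsc1-KO libraries (log2 fold change -0.29, SE 0.0832). The 3 Tsc1-KO values of Oas3 were below all WT values, so within 1 gene family and 1 gene cluster the differences had opposite signs, although the lower level of Oas3 did not pass the test across all genes. Oasl2, a synthetase-like family member, was at 2.91, 2.75 and 2.58 FPKM in WT and 3.59, 3.44 and 5.70 FPKM in Tsc1-KO libraries, the last standing out. Oas1a is uncertain in identity, since 57.6% of its distinct 50-base stretches also occur in transcripts of Oas1g or Oas1b.

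Isg15 encodes a ubiquitin-like protein that is attached to other proteins during the response. It was at 3.25, 3.24 and 3.0 FPKM in WT and 6.25, 5.34 and 8.32 FPKM in Tsc1-KO libraries (log2 fold change 1.02, SE 0.162). The WT values were nearly level, and the Tsc1-KO values spanned 1.56-fold. Rtp4, of the receptor transporter family, was at 3.24, 2.75 and 2.97 FPKM in WT and at 6.09, 5.16 and 7.58 FPKM in Tsc1-KO libraries (log2 fold change 1.03, SE 0.151), with the same order of the Tsc1-KO libraries as Isg15.

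The Ifit proteins bind viral RNA and block its translation. Ifit1 was at 1.87, 1.67 and 2.05 FPKM in WT and 3.28, 2.67 and 4.86 FPKM in Tsc1-KO libraries (log2 fold change 0.88, SE 0.218). Ifit3 was at 5.33, 6.73 and 4.33 FPKM against 7.56, 7.72 and 12.5 FPKM (log2 fold change 0.73, SE 0.235). In both, the groups did not overlap and Tsc1-KO replicate 6 was well above the other Tsc1-KO libraries. Ifit2, adjacent to Ifit3 on chromosome 19, overlapped between the groups, with 3.76, 4.32 and 2.86 FPKM in WT and 4.23, 4.13 and 6.45 FPKM in Tsc1-KO libraries. Ifit3 shares 51.2% of its 50-base stretches with Ifit3b, so reads from these stretches cannot be placed on 1 of the genes by sequence. How the counting treated them was not tested.

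Ifitm proteins sit in membranes and hinder the entry of enveloped viruses. Ifitm2 was at 79.1, 104 and 80.4 FPKM in WT and 109, 110 and 115 FPKM in Tsc1-KO libraries, and Ifitm3 at 40.8, 41.0 and 43.8 FPKM against 63.3, 47.6 and 84.9 FPKM. Ifitm2 was tight in the Tsc1-KO group (SD 3.3 FPKM around 111 FPKM) and wide in WT, whereas Ifitm3 was tight in WT (SD 1.71 FPKM around 41.9 FPKM) and wide in Tsc1-KO kidneys. For Ifitm2, 48.5% of the 50-base stretches also occur in other annotated transcripts, which holds for 11.6% in Rtp4 and 10.4% in the regulator Ifi35.

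The guanylate-binding proteins Gbp2, Gbp3 and Gbp7 are large GTPases that attack the membranes around intracellular pathogens. All of them overlapped between the groups, with log2 fold changes of 0.25 (SE 0.259), 0.41 (SE 0.233) and 0.26 (SE 0.164), although each carries an ISRE core. Gbp2 was at 2.35, 3.05 and 2.07 FPKM in WT and 2.91, 2.10 and 4.18 FPKM in Tsc1-KO libraries, and without Tsc1-KO replicate 6 its log2 fold change was 0.01.

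Other effectors ranged from clearly separated to level. Ifi44 was at 4.22, 5.37 and 3.21 FPKM in WT and 7.04, 5.64 and 7.67 FPKM in Tsc1-KO libraries. Lgals3bp, a secreted galectin-binding glycoprotein, was at 27.2, 28.1 and 20.6 FPKM against 37.7, 32.9 and 40.5 FPKM. In both genes the groups were apart and WT replicate 3 was the lowest library. Xaf1, which promotes cell death, was at 4.99, 4.83 and 1.1 FPKM in WT and 5.0, 6.47 and 9.37 FPKM in Tsc1-KO libraries. Its log2 fold change of 1.13 (SE 0.562) was 0.44 without WT replicate 3, where it had 62 reads against 290 and 282 in WT replicates 1 and 2. Cmpk2, a mitochondrial nucleotide kinase, was at 6.29, 8.81 and 3.44 FPKM in WT and 7.29, 7.31 and 9.45 FPKM in Tsc1-KO libraries, and its log2 fold change of 0.46 was 0.09 without WT replicate 3. For both genes WT replicate 3 therefore set much of the value. Samhd1, which depletes the nucleotides that retroviruses need, and Eif2ak2, the kinase PKR that stops translation when it binds double-stranded RNA, overlapped between the groups, with log2 fold changes of 0.23 (SE 0.121) and -0.03 (SE 0.103).

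**Figure D2:**
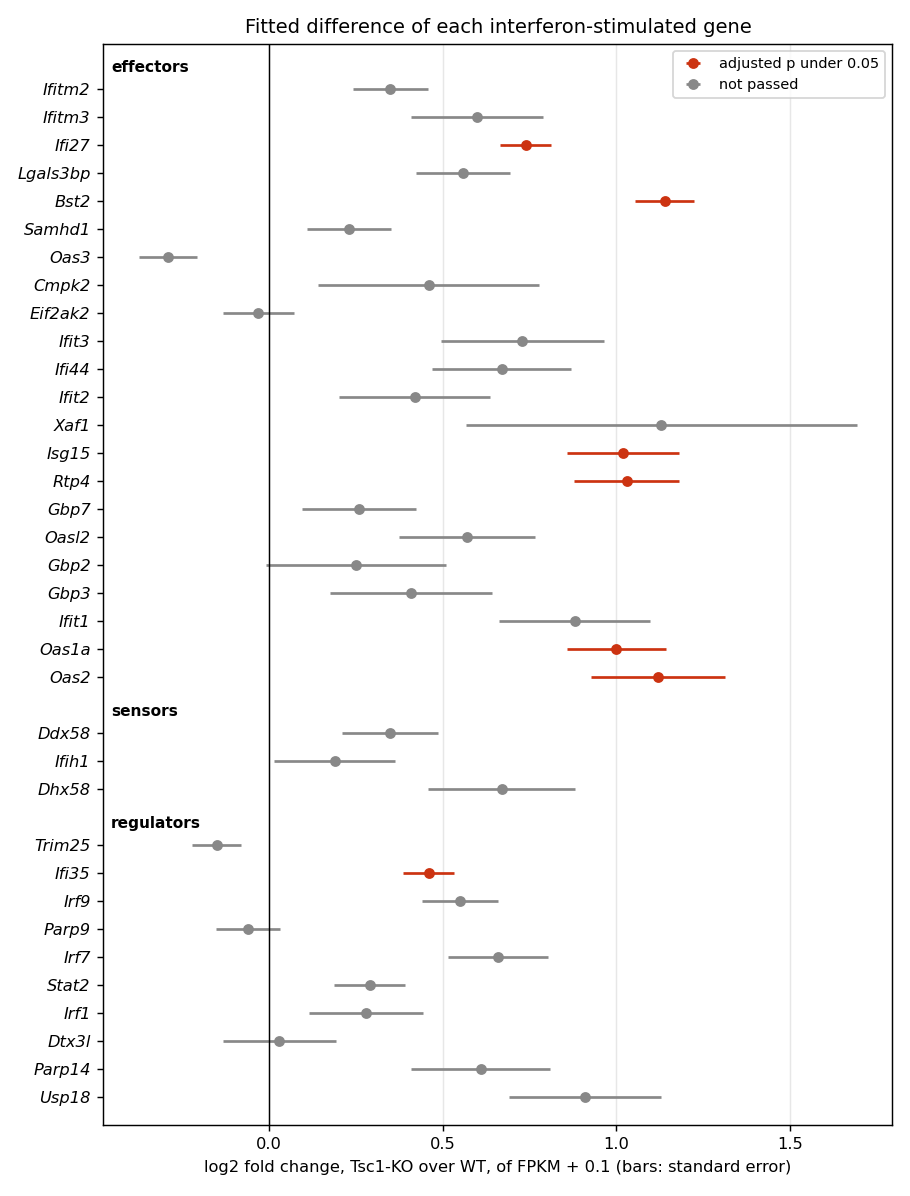
Log2 fold change of Tsc1-KO over WT on the log2(FPKM + 0.1) scale for the 35 members, with bars of 1 standard error from limma; red points are the 7 with an adjusted p under 0.05, grey points the other 28. Values run from -0.29 (Oas3) to 1.14 (Bst2), and 6 of the 7 red points are effectors.

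The sensors are RNA helicases of the RIG-I family. Ddx58, which encodes RIG-I, was at 6.54, 6.62 and 5.21 FPKM in WT and 7.19, 7.22 and 9.16 FPKM in Tsc1-KO libraries, a log2 fold change of 0.35 (SE 0.138). Dhx58, which encodes the related LGP2, was at 0.853, 0.905 and 0.633 FPKM against 1.07, 1.31 and 1.63 FPKM (log2 fold change 0.67, SE 0.212). In both, the groups were apart and none passed the test. Ifih1, which encodes MDA5, overlapped, with 3.87, 3.51 and 2.57 FPKM in WT and 3.51, 3.44 and 4.34 FPKM in Tsc1-KO libraries, and its log2 fold change of 0.19 was 0.02 without WT replicate 3. All 3 sensors were lowest in WT replicate 3 and highest in Tsc1-KO replicate 6, as most members were within their groups. Among all tested genes, WT replicate 3 was the lowest WT library in 45.5% and Tsc1-KO replicate 6 the highest Tsc1-KO library in 41.9%.

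Several regulators carry the signal into the nucleus. Irf9, the DNA-binding part of ISGF3, was at 5.66, 6.33 and 7.40 FPKM in WT and 9.50, 9.01 and 9.90 FPKM in Tsc1-KO libraries (log2 fold change 0.55, SE 0.109), and Stat2, its partner, was at 5.55, 5.79 and 5.29 FPKM against 5.96, 7.03 and 7.45 FPKM (log2 fold change 0.29, SE 0.103). Irf7, which amplifies interferon production, was at 6.36, 5.76 and 5.72 FPKM in WT and 9.03, 7.96 and 11.7 FPKM in Tsc1-KO libraries (log2 fold change 0.66, SE 0.144). These 3 did not overlap between the groups. Irf1, a factor that interferon-gamma induces early, did overlap, at 3.99, 5.13 and 3.35 FPKM against 5.34, 4.47 and 5.23 FPKM.

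Usp18 removes Isg15 from proteins and dampens receptor signalling, and so acts as a brake. It was at 1.62, 2.14 and 1.18 FPKM in WT and 3.09, 2.68 and 3.53 FPKM in Tsc1-KO libraries, a log2 fold change of 0.91 (SE 0.22), the largest among the regulators. Ifi35, an interferon-inducible leucine zipper protein, was at 8.78, 8.71 and 8.17 FPKM in WT and 11.3, 11.5 and 12.5 FPKM in Tsc1-KO libraries (log2 fold change 0.46, SE 0.0729). It was the only regulator to pass the test, with a narrow spread in both groups.

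Trim25, the ubiquitin ligase that acts on RIG-I, was lower in every Tsc1-KO library, with 18.4, 17.0 and 16.1 FPKM in WT and 15.8, 14.9 and 15.5 FPKM in Tsc1-KO kidneys (log2 fold change -0.15, SE 0.0707). The gap was narrow and did not pass. Parp9, Dtx3l and Parp14 lie next to each other on chromosome 16, and the first of these forms a ubiquitin ligase complex with Dtx3l. Parp14, an ADP-ribosyltransferase, was at 2.33, 2.94 and 1.97 FPKM in WT and 3.24, 3.28 and 4.70 FPKM in Tsc1-KO libraries (log2 fold change 0.61, SE 0.2), while Parp9 and Dtx3l had log2 fold changes of -0.06 (SE 0.0922) and 0.03 (SE 0.163) and overlapped. Parp9 and Dtx3l share 7.71% and 8.09% of their 50-base stretches with other transcripts, each other included, so their reads may not be fully separated. Neighbours within the cluster thus differed in level change, as Oas2 and Oas3 did.

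The libraries of a group were unequal across the members. Tsc1-KO replicate 6 was the highest Tsc1-KO library in 31 of 35 members, the exceptions being Ifi27, Oas3, Trim25 and Irf1, against 41.9% of tested genes. It was the highest of all 6 libraries in 30 members, and in 3248 of the 13230 tested genes. WT replicate 3 was the lowest WT library in 24 of 35 (68.6%), against 45.5% of tested genes, and the other 11 include Bst2, Ifi27 and Irf9, where it was the highest WT library. The median over the members of log2 level relative to the WT mean was 0.04, 0.12 and -0.09 in WT replicates 1, 2 and 3 and 0.39, 0.34 and 0.74 in Tsc1-KO replicates 4, 5 and 6. All 3 Tsc1-KO medians were above all WT medians, and that of replicate 6 was about as far from the other Tsc1-KO libraries as these were from WT. Because the members were chosen on these libraries, the order within a group is not independent of the choice.

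**Figure D3:**
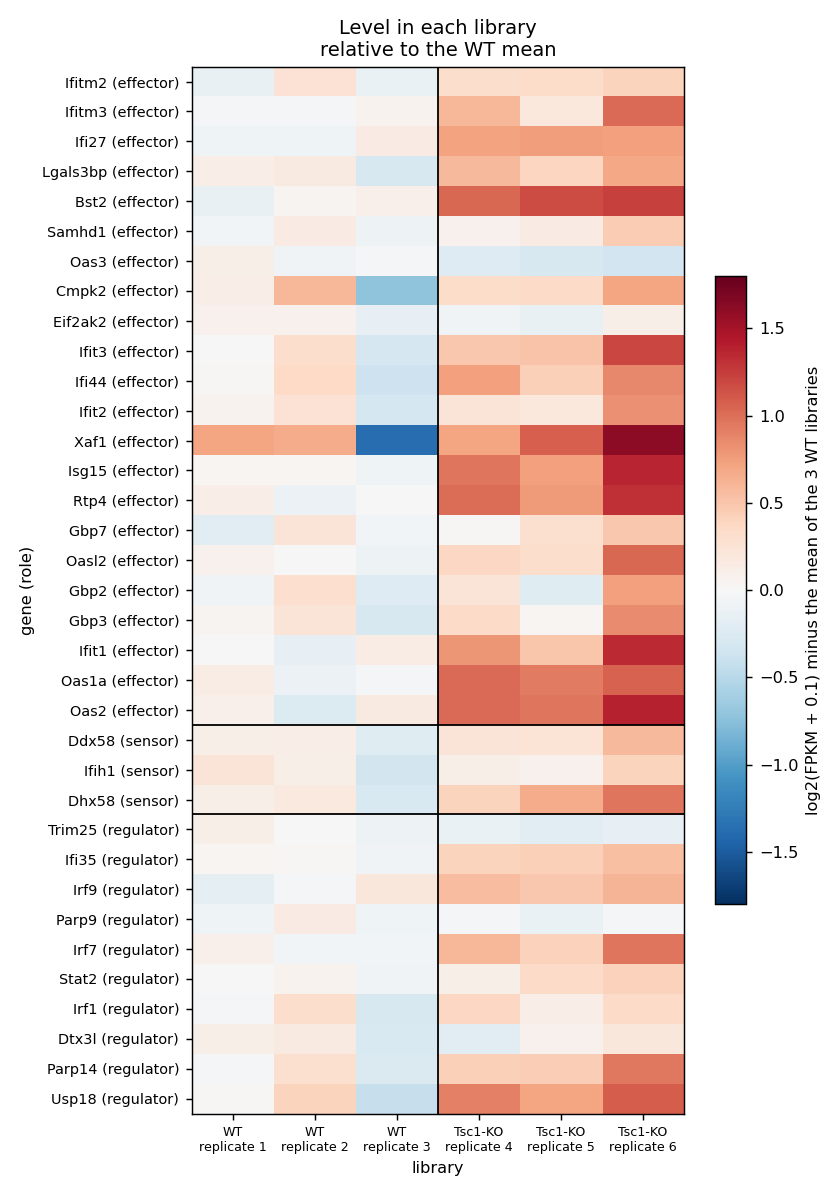
Level of each member (rows, by role) in each library (columns), as log2(FPKM + 0.1) minus the mean of the 3 WT libraries; red is above and blue below the WT mean. The Tsc1-KO replicate 6 column is the highest of the 3 Tsc1-KO columns in 31 of 35 rows, and Xaf1 and Cmpk2 are blue in WT replicate 3.

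Leaving out single libraries changed how many members passed in limma. Removal of WT replicate 1 left 1, Bst2, beside 0.197% of all tested genes called higher. With WT replicate 2 removed there were 3 (1.28% of all), and with WT replicate 3 removed there were 9 (5.36% of all). Dropping Tsc1-KO replicate 4 gave 2, Bst2 and Ifi27 (0.763% of all), dropping replicate 5 gave Bst2 alone (0.181% of all), and dropping replicate 6 gave 0. In that last fit limma called 0 of 13230 genes, 18 of 35 members and 13.4% of all tested genes had p under 0.05 before adjustment, and limma-voom, on reads recovered from the FPKM, called Bst2 alone (0.363% of all). With all 6 libraries, the same 7 members passed with a pseudocount of 1 FPKM (1.94% of all genes called higher), without the filter (1.76%), after median-of-ratios scaling (1.6%) and without the variance trend (1.47%), and limma-voom called 5 of them, not Isg15 and Ifi35 (1.9% of all). The median log2 fold change of the members was 0.39 without Tsc1-KO replicate 6 and 0.42 without WT replicate 3, with 30 of 35 members above 0 in each.

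Other genes of the interferon pathway, in 8 lists drawn up from general knowledge of the pathway, were read from the same fit. Of 121 genes, 108 were listed and 89 tested; 2 were called higher and 0 lower, beside 1.87% and 0.234% of all tested genes, 24 reached p under 0.05 before adjustment, as did 19.2% of all tested genes, and the median log2 fold change was 0.18 against 0.04 over all tested genes. In 23 of 89 (25.8%) every Tsc1-KO library lay above every WT library, beside the 17.3% of all tested genes, and in 2 every one lay below. The 11 interferon ligands of the lists, Ifnb1 and Ifng included, were not among the 15302 genes and were not analysed here.

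The upstream part of the pathway showed no call. Of 9 receptors and Janus kinases, 0 passed limma or limma-voom, and 0 reached p under 0.05 before adjustment, with a median log2 fold change of 0.13. Over all tested genes limma called 1.87% higher and 0.234% lower, and 19.2% reached p under 0.05 before adjustment. In lists this short, 0 calls is close to the shares called. Ifnar1, a chain of the type I receptor, was at 8.77, 9.61 and 8.59 FPKM in WT and 9.95, 9.94 and 9.89 FPKM in Tsc1-KO libraries (log2 fold change 0.14, adjusted p = 0.328 from limma). The other chain, Ifnar2, and the kinases Jak1 and Tyk2 differed by 0.13, 0.04 and 0.05 on the log2 scale, and the sign of the kinases turned when a single library was left out (-0.05 for Jak1 without WT replicate 3, -0.03 for Tyk2 without Tsc1-KO replicate 6). Of 6 STAT and IRF factors outside the members, 0 passed limma or limma-voom, and 0 reached p under 0.05 before adjustment (19.2% of all tested genes). Stat3, with the smallest p of its list, was higher by 0.33 on the log2 scale (adjusted p = 0.303).

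Of 12 tested genes of nucleic acid sensing, 0 passed limma or limma-voom and 5 reached p under 0.05 before adjustment (19.2% of all tested genes). Zbp1, a sensor of Z-form nucleic acids, was at 0.269, 0.474 and 0.385 FPKM in WT and 0.692, 0.898 and 1.29 FPKM in Tsc1-KO libraries (log2 fold change 1.14, adjusted p = 0.0988). Its groups were apart at a low level. For Tmem173, which encodes STING, the log2 fold change was 0.28 (adjusted p = 0.575), and Mb21d1, which encodes cGAS, was under the minimum of 0.5 FPKM at 0.173 to 0.243 FPKM in WT and 0.245 to 0.380 FPKM in Tsc1-KO libraries. Of 7 inhibitors of the response 0 passed limma or limma-voom and 1 reached p under 0.05 before adjustment (19.2% of all tested genes), with a median log2 fold change of -0.03. That gene was Nlrx1, a mitochondrial inhibitor of antiviral signalling, at 5.58, 6.09 and 4.54 FPKM in WT and 4.09, 4.06 and 3.74 FPKM in Tsc1-KO libraries (log2 fold change -0.43, adjusted p = 0.132), every Tsc1-KO value below the WT values.

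Among 41 further antiviral interferon-stimulated genes, 2 rose, 0 fell and 39 did not pass (1.87% of all tested genes were called higher), 15 reached p under 0.05 before adjustment (19.2% of all), and the median log2 fold change was 0.31. Ly6e, a membrane-anchored protein that affects virus entry, rose from 57.0, 55.9 and 43.4 FPKM in WT to 86.4, 85.5 and 95.3 FPKM in Tsc1-KO libraries (log2 fold change 0.78, SE 0.112, adjusted p = 0.0244 from limma). Shisa5 rose from 59.8, 56.2 and 58.2 FPKM to 70.8, 70.1 and 75.4 FPKM (log2 fold change 0.31, SE 0.0549, adjusted p = 0.0412). In both, every Tsc1-KO library lay above every WT library. Shisa5 no longer passed with median-of-ratios scaling (limma adjusted p = 0.0761) or with no variance trend (limma adjusted p = 0.0877). Neither passed once WT replicate 1 or any 1 Tsc1-KO library was removed, Ly6e alone passed once WT replicate 2 was, and with WT replicate 3 removed 4 genes of the lists were called higher and 1 lower (3.02% of all tested genes were then called lower). Rsad2, which encodes viperin, overlapped at 8.51, 11.8 and 5.23 FPKM in WT and 11.3, 11 and 14.9 FPKM in Tsc1-KO libraries (log2 fold change 0.60, adjusted p = 0.308). The classical myxovirus resistance genes were scarce and not tested, with Mx1 at 0.0722 to 0.164 FPKM in WT and 0.0970 to 0.281 FPKM in Tsc1-KO libraries, and Mx2 at 0.265, 0.277 and 0.288 FPKM against 0.582, 0.469 and 0.889 FPKM. For Mx2 the groups did not overlap.

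Interferon-gamma-induced GTPases and interferon-induced chemokines were read as further lists. Of 9 GTPases, 0 passed limma or limma-voom and 3 reached p under 0.05 before adjustment (19.2% of all tested genes), with a median log2 fold change of 0.34. Ifi47, with the smallest p, was at 1.79, 1.78 and 1.55 FPKM in WT and 2.38, 2.09 and 2.88 FPKM in Tsc1-KO libraries (limma adjusted p = 0.15). Of 5 chemokines 0 passed limma or limma-voom, and 0 reached p under 0.05 before adjustment (19.2% of all tested genes). Cxcl10, which attracts T cells, was at 3.29, 2.47 and 3.11 FPKM against 3.44, 2.83 and 5.16 FPKM, and for Cxcl16, with the smallest p, the log2 fold change was 0.24 (adjusted p = 0.287). The chemokine groups overlapped, and in 4 of the 5 Tsc1-KO replicate 6 was the highest of all libraries, as in 3248 of the 13230 tested genes.

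**Figure D4:**
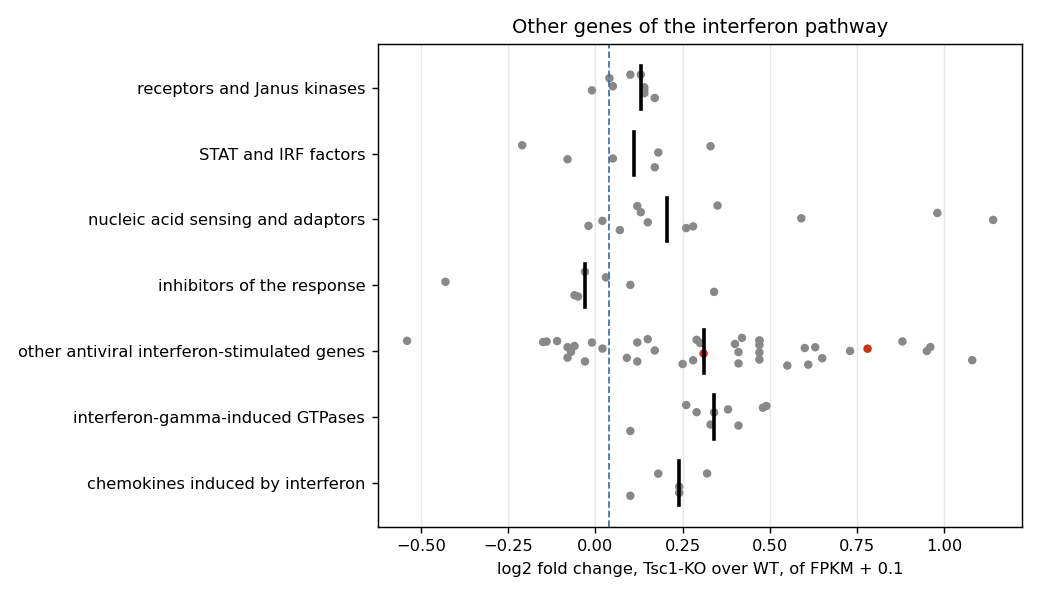
Log2 fold change of Tsc1-KO over WT (log2(FPKM + 0.1) scale, horizontal) for the 89 tested genes of 7 other lists of the interferon pathway; each point is 1 gene, spread vertically for sight only, red where called higher, black bars mark list medians and the dashed line the median of all tested genes, 0.04. Medians run from -0.03 (inhibitors) to 0.34 (GTPases), and the 2 red points are Ly6e and Shisa5.

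The order of the libraries varied among these lists. Tsc1-KO replicate 6 was the highest Tsc1-KO library in 65 of 89 (73%) and WT replicate 3 the lowest WT library in 58 of 89 (65.2%), against 41.9% and 45.5% of all tested genes. Among the 41 antiviral genes the counts were 34 (82.9%) and 31 (75.6%), while among the 12 genes of nucleic acid sensing they were 5 (41.7%) and 6 (50%), and among the 7 inhibitors 4 (57.1%) and 4 (57.1%).

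Markers of other cell types were read beside these results, because in bulk kidney RNA fewer or more cells of a type and less or more RNA per cell cannot be told apart. Limma and limma-voom called 0 of the 7 endothelial genes, and 0 reached p under 0.05 before adjustment (19.2% of all tested genes). Their levels summed to 153, 221 and 106 FPKM in WT replicates 1, 2 and 3 and to 190, 171 and 211 FPKM in the Tsc1-KO libraries, in order. Each of the 7 was lowest among WT libraries in replicate 3 and highest among Tsc1-KO libraries in replicate 6 (45.5% and 41.9% of all tested genes). In these libraries most members were lowest and highest in their groups. The full order of the endothelial sums, replicate 2, 1, 3 in WT and 6, 4, 5 in Tsc1-KO, was seen in 8 of 35 members (22.9%), namely Eif2ak2, Gbp2, Gbp3, Ifi44, Ifit2, Lgals3bp, Parp9 and Usp18, against 7.38% of tested genes. The macrophage and monocyte sums below followed the same order, so it is not particular to endothelial genes. Tie1, the endothelial gene with the smallest p, was at 9.48, 14.5 and 6.63 FPKM against 15.1, 12.9 and 15.8 FPKM.

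Of 13 macrophage and monocyte genes, 11 were tested, limma and limma-voom called 0, and 1 reached p under 0.05 before adjustment (19.2% of all tested genes). The 13 summed to 72.3, 81.4 and 66.6 FPKM in WT and 82.2, 70.4 and 107 FPKM in Tsc1-KO libraries, the same order of libraries as in the endothelial sums. All 11 tested genes were highest among Tsc1-KO libraries in replicate 6, as were 41.9% of all tested genes. The log2 fold change of Mrc1, the gene with p under 0.05, was 0.64 (limma adjusted p = 0.257). Sums of 7 listed dendritic cell genes were 5.70 to 8.97 FPKM in WT and 5.57 to 7.14 FPKM in Tsc1-KO libraries, of 4 listed neutrophil genes 2.52 to 8.08 FPKM and 4.06 to 7.95 FPKM, and of 5 listed T, NK and B cell genes 0.953 to 1.32 FPKM and 0.862 to 1.72 FPKM. The ranges of these immune cell sums overlapped between the groups. In limma the smallest p among dendritic cell genes belonged to Bst1 (log2 fold change 0.08, adjusted p = 0.882) and among neutrophil genes to S100a8 (0.94, adjusted p = 0.595). Bst1, at 4.1, 3.62 and 7.13 FPKM in WT and 5.16, 4.53 and 5.43 FPKM in Tsc1-KO libraries, made up most of the dendritic cell sum. That sum thus mostly follows Bst1, and only 2 of the 7 listed dendritic cell genes were tested. The part of endothelial cells and macrophages in the levels of the members was not tested.

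The 7 A-intercalated cell genes summed to 89.0, 96.6 and 112 FPKM in WT and 209, 283 and 261 FPKM in Tsc1-KO libraries, and 7 of 7 rose, among them Atp6v0d2, Slc4a1, Dmrt2 and Atp6v1g3 with log2 fold changes of 1.5, 1.25, 1.89 and 1.2 (adjusted p = 0.00696, 0.00875, 0.00875 and 0.0107 from limma). Their sum was highest in Tsc1-KO replicate 5, which had the lowest member median of its group. By gene, 3 of the 7 (42.9%) were highest among Tsc1-KO libraries in replicate 6, beside 41.9% of all tested genes. Of 6 principal cell genes 2 rose, the sodium channel subunits Scnn1b and Scnn1g (log2 fold changes 0.66 and 0.57). Fxyd4 was lower in every Tsc1-KO library without passing (log2 fold change -0.35, limma adjusted p = 0.0732) and Aqp3 was at -0.16 (limma adjusted p = 0.297). Beside these marker counts, limma called 1.87% of all tested genes higher. Of 5 tested injury genes 1 rose, Spp1 (osteopontin), at 338, 387 and 362 FPKM in WT and 563, 668 and 748 FPKM in Tsc1-KO libraries (log2 fold change 0.86, adjusted p = 0.0206). The other 4 did not pass, and their log2 fold changes differed in sign, from -0.32 for Havcr1 (adjusted p = 0.8) to 0.57 for Clu (adjusted p = 0.143). Most of the injury sum, 463 to 548 FPKM in WT and 761, 867 and 978 FPKM in Tsc1-KO libraries, came from Spp1. Without Tsc1-KO replicate 6 limma called none of these 10 marker genes, as it called 0 of all genes, and limma-voom called 2 (0.363% of all tested genes called higher). Removing WT replicate 1 left limma 2 marker genes (0.197% of all), and removing Tsc1-KO replicate 5 left it 2 (0.181% of all). The 5 podocyte genes had 0 calls and summed to 69.7, 90.6 and 58.8 FPKM in WT and 74.1, 86.4 and 102 FPKM in Tsc1-KO libraries. Of these 5, 5 were highest among Tsc1-KO libraries in replicate 6 and 4 were lowest among WT libraries in replicate 3, as most members were (41.9% and 45.5% of all tested genes). Proximal and distal tubule lists had 0 calls, and in the tubule lists the smallest p belonged to Lrp2 and Slc12a3, with log2 fold changes of -0.10 and 0.20. Before adjustment, 0 of 6 proximal and 2 of 5 distal genes reached p under 0.05 in limma (19.2% of all tested genes). Whether any of these cell types carries the member transcripts was not tested.

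**Figure D5:**
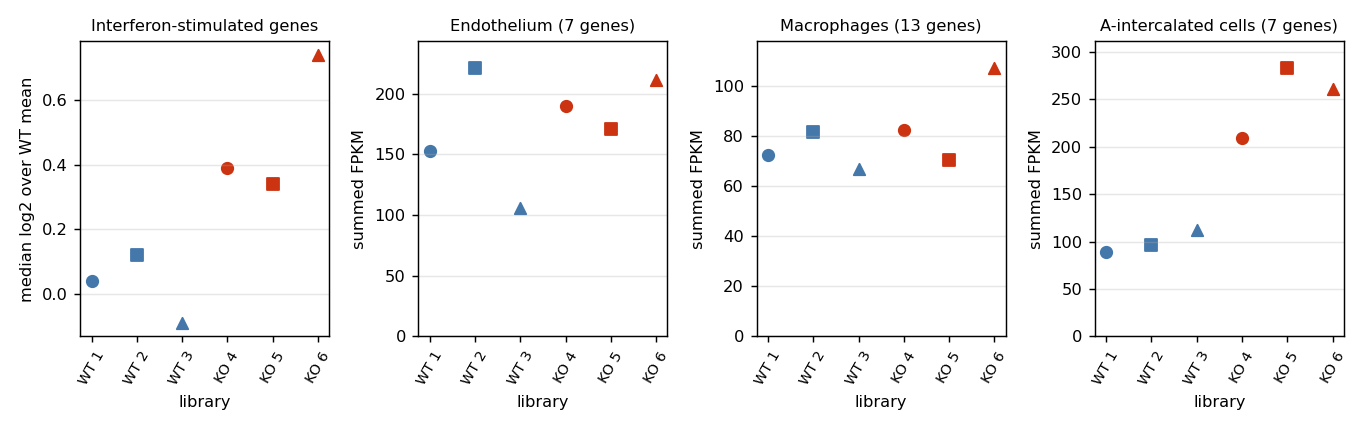
Per library, from left to right: the median over the 35 members of log2 level relative to the WT mean, and the summed FPKM of 7 endothelial, 13 macrophage and 7 A-intercalated cell genes; blue is WT, red is Tsc1-KO, and there are no error bars since each point is 1 library. The member median is 0.34 to 0.74 in Tsc1-KO and -0.09 to 0.12 in WT libraries, the endothelial and macrophage sums overlap between the groups, and the A-intercalated sums do not.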

How the data were processed

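Poly A RNA of total kidney from 3 WT and 3 Tsc1-KO mice was sequenced on an Illumina system. The submitters' processing notes name HISAT2 2.0.4 and HTSeq 0.9.1; the genome build is not given in the sources used here. The authors deposited FPKM per library for 15302 genes, the unit used throughout. Their base mean columns hold a signal, the mean normalised count per group as deposited by the authors. Whole reads were recovered from both, and of 90068 values at or below 10000 reads, 100% were whole at a tolerance of 0.02. Deposited columns of fold change, its log2 and p-values, and 2 lists of changed genes, hold the authors' own comparison and were not used.

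The 13230 genes that averaged 0.5 FPKM or more were fitted as log2(FPKM + 0.1) with limma 3.58.1 in R 4.3.3, with genotype as the only term and a variance trend; tests were 2-sided and p-values were adjusted over all tested genes by the Benjamini-Hochberg method, and fold changes on this scale understate those of low genes. The fit was tested on simulated reads with the same dispersion for every gene and no library set apart. These data differ from that setting, so the simulation says nothing about the calls here. Python 3.11.15 with pandas 2.3.3, numpy 2.4.6 and matplotlib 3.10.9 made the tables and figures. The p-values weigh the difference between the groups against the spread between libraries of a group, moderated across genes. Nothing in the labels says whether samples came from separate litters or days, so effects of these are not accounted for.

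The members and lists were chosen with earlier results of these data known; the pathway and marker lists come from textbook knowledge. Named outside the members are genes of these lists that passed (at most 4 a list, in order of p) or, in a list without a call, the one of lowest p, 13 fixed pathway genes and Tsc1; some genes that this rule takes in are not reported here. H2-Ea-ps, Havcr1, Clu, Fxyd4 and Aqp3 were chosen after their values were seen. Gene order came from RefSeq (GRCm38.p6), names only, and shared 50-base stretches from GENCODE M21 transcripts. Settings varied were the pseudocount, the filter, median-of-ratios scaling, the variance trend, limma-voom on the recovered reads and leaving out each library; limma-voom without Tsc1-KO replicate 6 was added after seeing the data.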

Additional observations from a re-analysis of the deposited data

How the results depend on the processing

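No paired analysis was possible because the groups share no replicate number (1, 2 and 3 in WT, 4, 5 and 6 in Tsc1-KO). Of the 35 members, 32 kept the sign of their log2 fold change under all 12 alternatives; Dtx3l, Eif2ak2 and Parp9 did not. The count of members called higher was 7 with a pseudocount of 1 FPKM, without the filter, after median-of-ratios scaling and without the variance trend, 5 in limma-voom, 0 to 9 when a library was left out, and 1 in limma-voom without Tsc1-KO replicate 6. The median log2 fold change of the members was 0.42 with a pseudocount of 1 FPKM and 0.51 after median-of-ratios scaling. Other pathway genes called higher were 1 after median-of-ratios scaling, 1 without the variance trend, 0 to 4 when a library was left out and 0 in limma-voom without Tsc1-KO replicate 6; those called lower were 0 to 1 when a library was left out. Marker genes called higher were 10 with all libraries, 0 to 13 when a library was left out and 2 in limma-voom without Tsc1-KO replicate 6, and those called lower 0 to 1. With a library left out, the log2 fold change of Bst1 ran from -0.10 to 0.38 (-0.02 without WT replicate 1), that of Jak1 from -0.05 to 0.09 and that of Tyk2 from -0.03 to 0.11, and limma-voom without Tsc1-KO replicate 6 also gave -0.03 for Tyk2. Fits without a library have fewer samples; the cause of the differences between them was not tested. With 3 libraries a group and 29 of 35 members under 10 FPKM, a difference that did not pass is not shown to be absent.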
